A study of Mus musculus with 6 samples.

Results

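The growth hormone axis of the liver was followed through 10 genes: the growth hormone receptor Ghr, the kinase Jak2, the transcription factors Stat5a and Stat5b, the feedback and repressor genes Socs2, Cish and Bcl6, and the insulin-like growth factor genes Igf1, Igfals and Igfbp1. The genes were taken by their place in the pathway, with earlier results of these data known. Every probe set carrying only their symbol was taken. That gave 24 of the 45037 probe sets of the array that are not controls, for 10 of the 18193 genes named on it. The study hybridised liver RNA from 6 male mice, 9 weeks old, to single-colour Affymetrix arrays, 1 mouse to an array. The knockouts, numbered 3, 4 and 5 in the labels, were 3 mice of genotype Alb-Cre:Keap1(flox/-), and the controls, numbered 1, 2 and 3, were 3 mice of genotype Alb-Cre:Keap1(flox/+). All 6 mice carried a Cre recombinase driven by the albumin promoter and a floxed Keap1 allele, and all 6 had received vehicle alone (10% DMSO, 10% Cremophor-EL and 80% PBS). The null allele of the knockouts is not limited to hepatocytes, and no group without Cre was analysed here.

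KEAP1 holds the transcription factor NRF2 at a low level, and its loss in hepatocytes lets NRF2 act on its target genes. Growth hormone binds its receptor on hepatocytes, which activates the kinase JAK2, and JAK2 phosphorylates STAT5A and STAT5B. Phosphorylated STAT5 enters the nucleus and raises transcription of Igf1, of Igfals, which encodes the acid-labile subunit that keeps circulating IGF1 in a large complex, and of Socs2 and Cish, whose products restrain the receptor. Liver is the main source of circulating IGF1, and in male rodents growth hormone arrives in pulses that set the male pattern of liver gene expression.

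The signal of a probe set is given below in the authors' linear units, and differences are knockout minus control on the log2(signal + 16) scale, which understates the change of dim probe sets. A probe set was called when its limma p, adjusted over all 27022 probe sets bright enough to be tested, was under 0.05. By that rule 1.52% of all tested probe sets were called in either direction, 0.803% as higher and 0.714% as lower in the knockouts. Each p sets the difference between the means of 3 mice and 3 mice against the spread within the groups. That spread is moderated over all tested probe sets. Keap1 itself, in its brighter probe set 1450746_at, had signals of 326, 151 and 214 in the knockouts, against 786, 843 and 699.8 in the controls (log2 difference -1.74, adjusted p = 0.0103), and the dimmer 1450747_at stood at 62.5% of the control mean (adjusted p = 0.223). Nqo1, an NRF2 target, was 4.96-fold higher in the knockouts (adjusted p = 0.000147). All 6 hepatocyte markers were among the bright probe sets, as the liver label requires, and their summed signal was 166843 to 182968 in the knockouts and 144134 to 165597 in the controls.

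Of the 24 probe sets, 21 were bright enough to be tested, and all 10 genes had at least 1 of them. Ghr and Igf1 each had 1 probe set that fell in the knockouts, none rose, and the other 19 did not pass the threshold. The 2 called probe sets are 9.52% of the 21 tested, against the 0.714% called lower among all tested probe sets. The knockout mean was below the control mean on the log2 scale in 16 of the 21. In 7 of them, all lower in the knockouts, no knockout mouse reached any control mouse, which is 33.3% of the 21 and is to be read against 20.5% of all tested probe sets (11.4% lower and 9.07% higher). An unadjusted p under 0.05 was reached by 8 of the 21, or 38.1%, against 14.4% of all. The median difference of the 21 was -0.44, against -0.04 over all tested probe sets. Over all 24 probe sets, the dim ones included, it was -0.31, against -0.05 over the 45037. The 7 probe sets without overlap belong to Ghr, Jak2, Igf1 and Igfals, and several probe sets of a gene are not separate genes. By the brightest probe set of each gene only Ghr was called. The 10 genes were chosen with earlier results of these data known, so these shares and medians are no independent evidence.

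**Figure D1:**
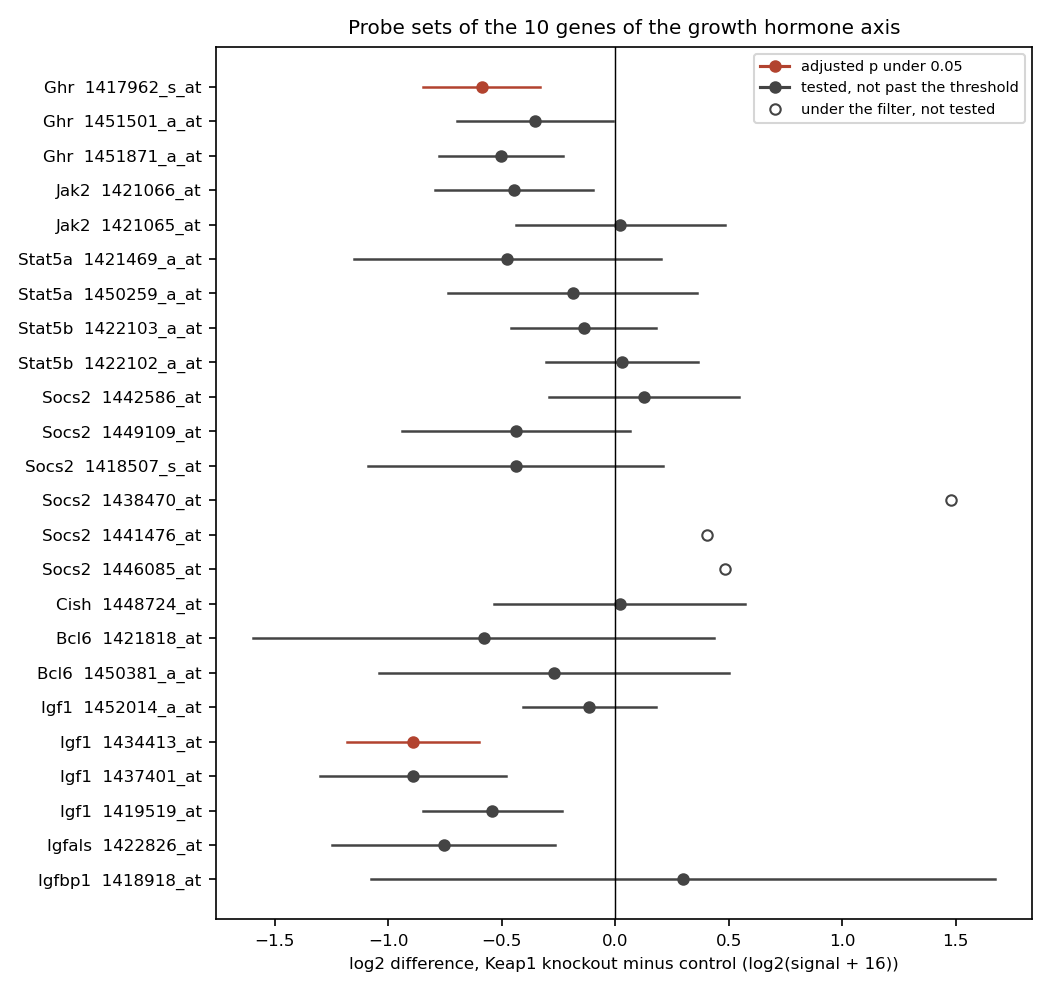
The log2 difference, knockout minus control, of each of the 24 probe sets of the 10 genes, with the 95% interval from limma for the 21 tested ones. Red points have an adjusted p under 0.05, and filled dark grey points were tested and did not pass. Open points without an interval are the 3 Socs2 probe sets under the brightness limit, which were not tested. The intervals of 1417962_s_at of Ghr (-0.85 to -0.33) and 1434413_at of Igf1 (-1.18 to -0.60) belong to the called probe sets, and those of Cish and Igfbp1 span 0.

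The receptor, first in the pathway, fell in the knockouts by 1 of its 3 probe sets. Ghr had signals of 10293, 11181 and 9706 in the knockouts with its brightest probe set, 1417962_s_at, against 17052, 16577 and 13491 in the controls. Every knockout mouse lay below every control mouse. The means were 10393 ± 743 in knockouts and 15707 ± 1934 in controls (SD, n = 3 each), so the knockouts stood at 66.2% of the controls. The log2 difference was -0.59 (SE 0.11, 95% interval -0.85 to -0.33, limma adjusted p = 0.0414). In bulk tissue, fewer cells of a type and less RNA per cell cannot be told apart.

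The other 2 Ghr probe sets were lower by similar amounts and did not pass the threshold. Probe set 1451871_a_at had signals of 2644, 3108 and 2388 in the knockouts, against 4105, 3936 and 3489 in the controls, again with no overlap (log2 difference -0.51, 95% interval -0.78 to -0.23, adjusted p = 0.0931). Probe set 1451501_a_at had 7500.0, 8500.3 and 6319 in the knockouts, against 10967, 9971 and 7705 in the controls, and here knockout 4 lay above control 3 (-0.35, 95% interval -0.70 to -0.01, adjusted p = 0.333). With the 3 probe sets averaged before the fit, Ghr differed by -0.48 and was not called (adjusted p = 0.127).

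The Ghr call rested on a narrow margin. It was kept without control 3 (adjusted p = 0.0262) and was lost when any other single array was left out, with adjusted p between 0.0689 (without knockout 4) and 0.151 (without knockout 3). The difference itself stayed between -0.70 and -0.53 in these 6 fits.

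Igf1, the growth factor that the axis delivers to the circulation, gave different sizes of difference with its 4 probe sets. Probe set 1434413_at had signals of 4996, 5854 and 6908 in the knockouts, against 11519.8, 11357 and 9906 in the controls. No knockout mouse came near the lowest control. The means were 5919 ± 958 in knockouts and 10928 ± 888 in controls (SD, n = 3 each), which is 54.2% of the control level. Igf1 fell in the knockouts by this probe set, with a log2 difference of -0.89 (SE 0.13, 95% interval -1.18 to -0.60, limma adjusted p = 0.0128).

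Probe set 1437401_at of Igf1 had signals of 3915, 5331 and 5993 in the knockouts, against 10654, 10146 and 7431 in the controls. Its difference was also -0.89 (95% interval -1.30 to -0.48), and its adjusted p of 0.0501 missed the threshold. Probe set 1419519_at had 3324, 3178 and 3325 in the knockouts, against 5563, 5101 and 3847 in the controls (-0.54, 95% interval -0.85 to -0.24, adjusted p = 0.103). In both, the groups did not overlap.

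The brightest Igf1 probe set, 1452014_a_at, did not share this pattern. It had signals of 14899, 14119 and 11981 in the knockouts, against 16359, 15668 and 12467 in the controls, so the groups overlapped and the knockouts stood at 92.1% of the controls. The difference was -0.11, with a 95% interval of -0.41 to 0.18 (adjusted p = 0.737).

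The gap between the Igf1 probe sets was itself measured within each mouse. The log2 signal of 1434413_at minus that of 1452014_a_at was -1.57, -1.27 and -0.79 in the knockouts, against -0.51, -0.46 and -0.33 in the controls. The group means differed by -0.78, with no overlap. For 1437401_at minus 1452014_a_at the values were -1.92, -1.40 and -0.998 in the knockouts, against -0.62, -0.63 and -0.75 in the controls, with the same difference of -0.78. These pairs were chosen after the signals were seen, so their difference is a description with no test. Which Igf1 transcripts each probe set detects was not analysed here.

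Averaged over its 4 probe sets, Igf1 differed by -0.61 (adjusted p = 0.0523). The call of 1434413_at was lost without control 1 (adjusted p = 0.0516) and without control 2 (0.0532), and was kept without any of the other 4 mice.

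**Figure D2:**
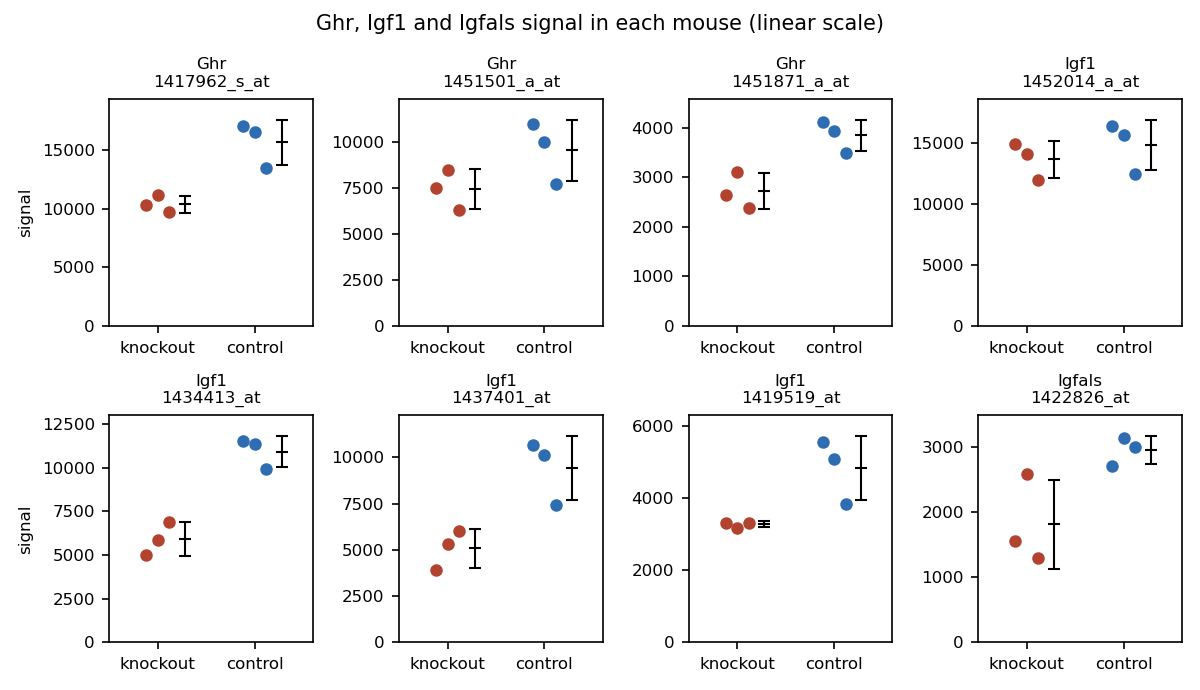
Signal (linear axis from 0) of the 8 probe sets of Ghr, Igf1 and Igfals, 1 point per mouse, 3 knockouts left of 3 controls, with the mean ± SD beside the points. Knockouts lie below all controls in 6 of the 8 panels, and the groups overlap for 1451501_a_at of Ghr and 1452014_a_at of Igf1.

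Igfals, made in hepatocytes and induced by growth hormone, had signals of 1559, 2587 and 1297 in the knockouts, against 2713, 3138 and 2999.8 in the controls. All knockouts were below all controls, though knockout 4 was close to control 1. The knockouts averaged 61.5% of the controls (log2 difference -0.76, 95% interval -1.25 to -0.26, limma adjusted p = 0.154), which did not pass the threshold. Without knockout 4 the difference was -1.04 and passed it (adjusted p = 0.00974).

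Igfbp1, a secreted protein that binds IGF1 and that insulin represses, varied more between mice than between groups. Its signals were 1239.5, 630.1 and 2251 in the knockouts, against 2769.6, 541 and 621 in the controls. The highest value of all was control 1 and the lowest was control 2. The difference of 0.30 had a 95% interval of -1.08 to 1.67 (adjusted p = 0.869), the widest interval among the 21 tested probe sets.

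The kinase and the transcription factors between receptor and target did not pass the test. Jak2, the kinase bound to the receptor, had signals of 636, 476 and 671 in the knockouts with its brighter probe set 1421066_at, against 864, 733 and 833 in the controls. These groups did not overlap, and the difference was -0.45 (95% interval -0.80 to -0.10, adjusted p = 0.227). Its second probe set, 1421065_at, had 279, 202 and 249.9 in the knockouts, against 187, 273 and 262 in the controls, with a difference of 0.02 (95% interval -0.44 to 0.48).

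Stat5a showed no separation of the groups. Its probe set 1421469_a_at had signals of 364, 159.5 and 376 in the knockouts, against 392, 334 and 477 in the controls (difference -0.48, 95% interval -1.15 to 0.20, adjusted p = 0.511). Knockout 4 was the lowest mouse for this probe set. The dimmer 1450259_a_at had 125, 104 and 175 in the knockouts, against 142, 137 and 181 in the controls (-0.19, adjusted p = 0.777).

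Stat5b, the STAT5 form on which male-type liver gene expression depends most in mice, differed little between the groups. Probe set 1422103_a_at had signals of 506, 530.4 and 542 in the knockouts, against 617, 491 and 647 in the controls (-0.14, 95% interval -0.46 to 0.18, adjusted p = 0.699). Probe set 1422102_a_at had 433, 458 and 484 in the knockouts, against 510.1, 383 and 461 in the controls, with a difference of 0.03. Its 95% interval was -0.30 to 0.36, and that of the brighter probe set reached down to -0.46. Differences of such sizes could have been missed by these arrays. Messenger levels do not measure phosphorylation, through which STAT5 is switched on.

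**Figure D3:**
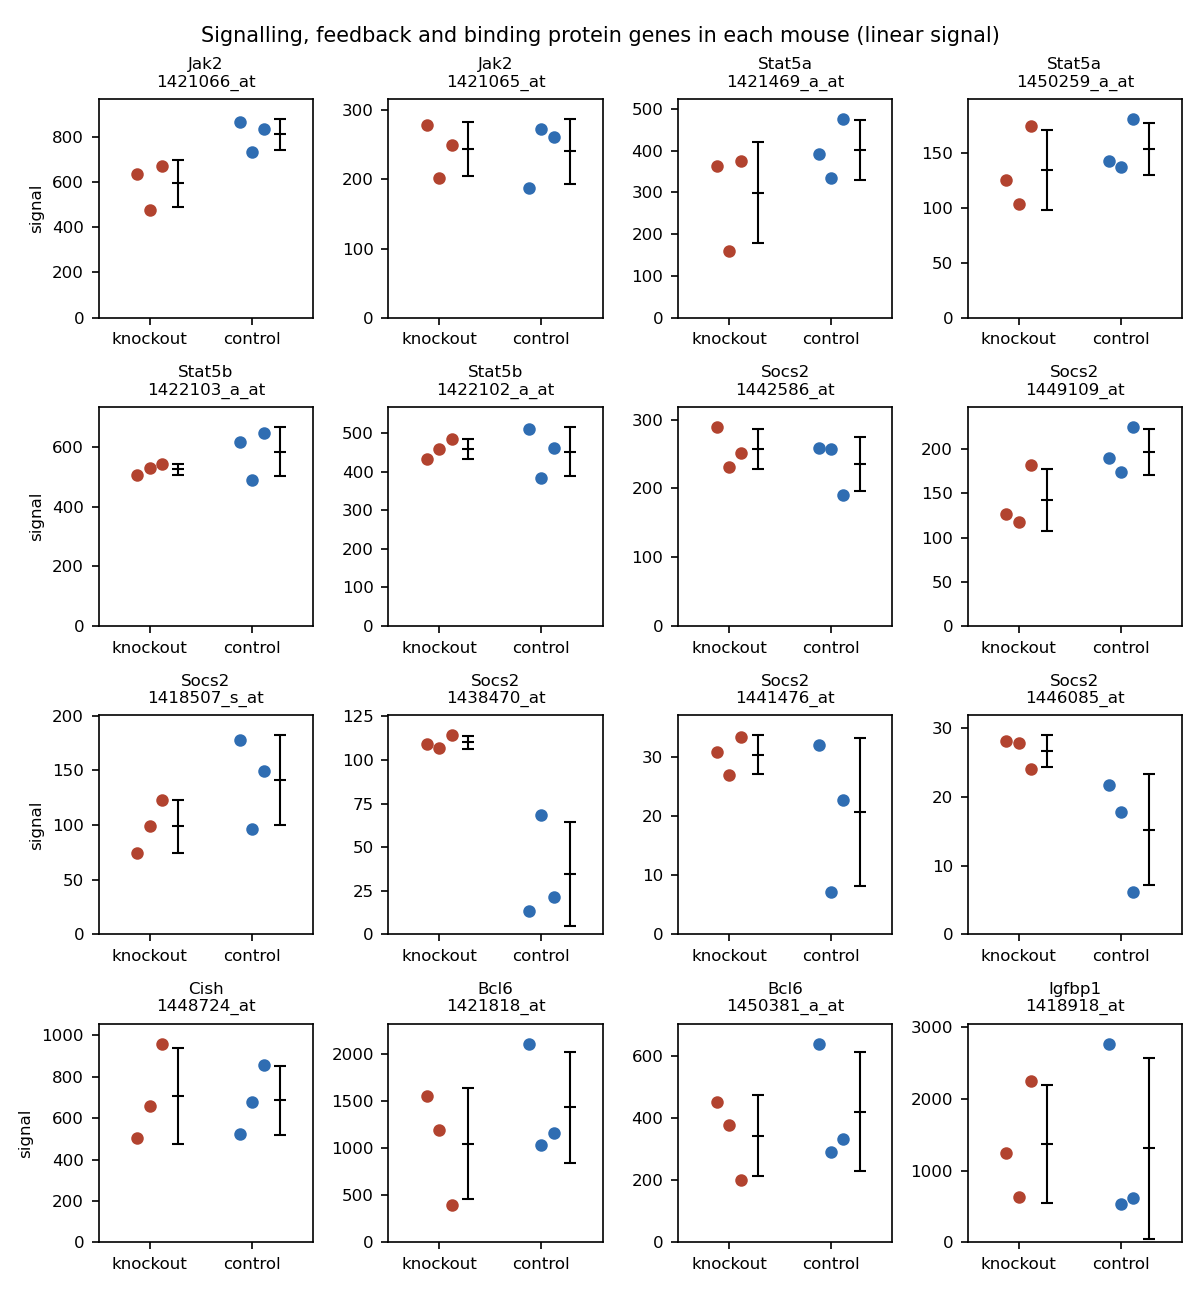
Signal (linear axis from 0) of the probe sets of Jak2, Stat5a, Stat5b, Socs2, Cish, Bcl6 and Igfbp1, 1 point per mouse, 3 knockouts left of 3 controls, with the mean ± SD beside the points. Among the tested probe sets drawn the groups are apart only for 1421066_at of Jak2, and Bcl6 and Igfbp1 spread widely within a group.

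The feedback genes, which growth hormone pulses induce, did not pass the test. Cish encodes an SH2 protein that dampens STAT5 signalling, and its signals were 503, 659 and 960.5 in the knockouts, against 526, 678 and 858 in the controls. Both groups spanned nearly the same range, with a difference of 0.02 (95% interval -0.53 to 0.57, adjusted p = 0.983).

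Socs2, an SH2 protein that promotes removal of the growth hormone receptor, was carried by 6 probe sets that did not run together. The brightest, 1442586_at, had signals of 289, 231 and 251 in the knockouts, against 259, 258 and 190.4 in the controls (difference 0.13, adjusted p = 0.806). Probe set 1449109_at had 127, 118 and 182 in the knockouts, against 190.2, 174 and 225 in the controls (-0.44, 95% interval -0.94 to 0.06, adjusted p = 0.41). The third tested one, 1418507_s_at, had 73.9, 98.9 and 123 in the knockouts, against 177, 96.3 and 149 in the controls (-0.44, adjusted p = 0.526). In all 3 of these the groups overlapped.

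The 3 Socs2 probe sets under the brightness limit were all higher on average in the knockouts. Probe set 1438470_at had signals of 109, 107 and 114 in the knockouts, against 13.4, 68.6 and 21.3 in the controls, with no overlap. When all probe sets were fitted, without the limit, its difference was 1.48 (95% interval 0.52 to 2.43, limma adjusted p = 0.225). Controls 1 and 3 lay near a signal of 16, where the array measures little. Probe sets 1446085_at (28.2, 27.8 and 24.0 in the knockouts, against 21.7, 17.8 and 6.2 in the controls) and 1441476_at (30.9, 27.0 and 33.5 in the knockouts, against 32.1, 7.2 and 22.7 in the controls) were near that level as well.

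Bcl6, a repressor whose product competes with STAT5 at shared DNA sites in male mouse liver, varied widely. Its probe set 1421818_at had signals of 1553, 1193 and 402 in the knockouts, against 2115, 1036 and 1165 in the controls (difference -0.58, 95% interval -1.60 to 0.43, adjusted p = 0.598). Knockout 5 was the lowest mouse and control 1 the highest. The dimmer 1450381_a_at ordered these same extremes alike, with 453, 378 and 201 in the knockouts, against 641, 290.0 and 334 in the controls (-0.27, adjusted p = 0.771).

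STAT5 binds the letters TTCNNNGAA, which read the same on both strands, and the promoters of the genes were searched for them. The RefSeq table of GRCm38.p6 holds 15 windows of 300 bases, from 250 before to 50 after a start, for 9 of the 10 genes. The letters occurred in 5 of the 15 windows, those of Cish, Bcl6 and Igfals, and in 8.3% of the 32851 windows of all genes. Windows with 2 or more occurrences made up 0.457% of all, and Cish and 1 window of Bcl6 were among them. The NRF2-type letters TGACNNNGC, read on both strands, occurred in 0 of the 15 windows and in 12.4% of all windows. The lines that follow show 3 windows with occurrences, to place them against the start. After them comes 1 window each of Igf1 and Ghr, the 2 genes with a called probe set, which hold none. Capitals mark TTCNNNGAA.

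Cish, chr9:107296409-107296708 (+): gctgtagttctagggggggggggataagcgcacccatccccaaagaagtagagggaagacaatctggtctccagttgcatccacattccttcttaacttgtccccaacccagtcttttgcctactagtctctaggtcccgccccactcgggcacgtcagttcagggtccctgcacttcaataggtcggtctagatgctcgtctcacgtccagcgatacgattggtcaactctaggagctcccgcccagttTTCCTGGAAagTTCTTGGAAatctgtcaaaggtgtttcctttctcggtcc
Bcl6, chr16:23981234-23981533 (-): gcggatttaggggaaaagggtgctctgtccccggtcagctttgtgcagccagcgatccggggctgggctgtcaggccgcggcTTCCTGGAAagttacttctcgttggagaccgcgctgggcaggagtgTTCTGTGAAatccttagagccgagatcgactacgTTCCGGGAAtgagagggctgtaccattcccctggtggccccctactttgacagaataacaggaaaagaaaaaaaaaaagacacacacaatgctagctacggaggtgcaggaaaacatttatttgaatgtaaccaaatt
Igfals, chr17:24877981-24878280 (+): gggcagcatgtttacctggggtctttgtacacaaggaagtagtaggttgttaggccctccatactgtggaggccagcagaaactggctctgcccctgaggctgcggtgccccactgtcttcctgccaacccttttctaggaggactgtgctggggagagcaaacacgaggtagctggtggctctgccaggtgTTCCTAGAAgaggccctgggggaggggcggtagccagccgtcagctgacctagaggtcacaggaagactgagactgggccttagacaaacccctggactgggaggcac
Igf1, chr10:87860861-87861160 (+): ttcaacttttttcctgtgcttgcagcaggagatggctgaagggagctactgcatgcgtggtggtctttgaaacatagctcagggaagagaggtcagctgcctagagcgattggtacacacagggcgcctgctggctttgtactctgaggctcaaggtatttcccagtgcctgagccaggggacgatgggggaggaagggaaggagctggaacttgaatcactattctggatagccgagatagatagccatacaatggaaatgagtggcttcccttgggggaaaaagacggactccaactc
Ghr, chr15:3581793-3582092 (-): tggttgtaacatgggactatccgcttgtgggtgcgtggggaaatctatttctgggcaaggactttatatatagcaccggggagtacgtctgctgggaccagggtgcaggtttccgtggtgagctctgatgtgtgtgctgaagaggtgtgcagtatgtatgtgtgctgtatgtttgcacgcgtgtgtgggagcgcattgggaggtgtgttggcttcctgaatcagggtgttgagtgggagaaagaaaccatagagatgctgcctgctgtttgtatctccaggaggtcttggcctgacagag

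In Cish the occurrences TTCCTGGAA and TTCTTGGAA began at bases 1 and 12 counted from the transcript start. In the Bcl6 window shown, TTCCTGGAA, TTCTGTGAA and TTCCGGGAA began 168, 122 and 88 bases upstream, and a second Bcl6 window held TTCTCAGAA 118 bases upstream. In the Igfals window shown, TTCCTAGAA began 58 bases upstream, and another window held TTCTCAGAA 236 bases upstream. The genes with these letters in a window did not pass the expression test. Ghr and Igf1, each with 1 called probe set, had none within theirs. Jak2, Stat5a, Stat5b and Igfbp1 had none either, and they did not pass. A link between the letters and expression was not tested. A match is a run of letters and not a measured binding site, and sites outside the windows were not looked at.

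The other genes of the pathway gave few calls. By the brightest probe set of each gene, 1.85% of 13027 genes were called, 0.975% as higher and 0.875% as lower, and the median difference was -0.02. Of 20 receptor relatives and proximal signalling genes, 0 were called by limma (median -0.05), and 4 had an unadjusted p under 0.05. The largest differences there were those of the phosphatase gene Ptprf (-0.68, adjusted p = 0.0755) and of Stat2 (-0.49, adjusted p = 0.122), whose groups did not overlap. Of 6 other SOCS genes 0 were called and 1 had an unadjusted p under 0.05. Among them Socs3 stood at -0.43 (adjusted p = 0.638) and Socs5 at 0.33 (adjusted p = 0.325).

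Among 13 further genes of the IGF system 1 fell and 0 rose. Igfbp2, an IGF binding protein that hepatocytes secrete, had signals of 3771, 7186 and 5461 in the knockouts, against 13046, 14871 and 13487 in the controls. All knockouts lay far below all controls, at 39.7% of the control mean, a 2.60-fold lower level (log2 difference -1.38, SE 0.20, limma adjusted p = 0.0128). Without control 2 its adjusted p was 0.0509. Singled out after their values were seen, Igfbp3, the partner of IGFALS in the circulating complex, had signals of 654, 613 and 652 in the knockouts, against 453, 468 and 341 in the controls (0.60, adjusted p = 0.107). Stc2, an inhibitor of the protease that releases IGF from its binding proteins, had 214, 158 and 176 in the knockouts, against 306, 298 and 427 in the controls (-0.85, adjusted p = 0.0877). The groups did not overlap for either gene, and neither passed the threshold. The median of the 13 was -0.12.

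Of 13 transcription regulators listed as possible partners of STAT5 in liver, 1 rose and 0 fell (median -0.07). Whether they act with STAT5 in these mice was not tested. Trim24, a coregulator of nuclear receptors, had signals of 1200.1, 1425 and 1349.9 in the knockouts, against 634, 713 and 596 in the controls. That is 2.02-fold higher, well above the spread of either group (log2 difference 1.02, limma adjusted p = 0.00556), and it was called under all 20 alternatives tried.

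Genes whose liver level differs between the sexes under growth hormone control were read in lists drawn up with earlier results of these arrays known, so their direction is no independent evidence. Of 18 male-biased genes 5 fell, 0 rose and 13 were not called (median -0.31). On average 12 of the 18 were below control and 6 above it. Hsd3b5, a male-specific steroid dehydrogenase, had signals of 487, 119 and 985 in the knockouts, against 8503, 9223 and 4825 in the controls (log2 difference -4.15, limma adjusted p = 0.0128). Elovl3, a fatty acid elongase, fell by 1.89, the organic anion transporter Slco1a1 by 1.58 and Susd4 by 0.87 on the log2 scale. The fifth, Nat8, named after its values were seen, stood at 55.1% of the control mean (adjusted p = 0.0126). Other male-biased genes, also picked after their values were seen, did not fall in this way. Cyp7b1 stood at 0.44 (adjusted p = 0.253), Mup3 at 0.22 (0.308) and Cyp4a12a at -0.10 (0.816). The Susd4 call was lost without any 1 of the 6 arrays (adjusted p 0.0515 to 0.0866) and as a mean over its probe sets (0.13). That of Elovl3 was lost without knockout 4 (0.0635), knockout 5 (0.0757), control 1 (0.0507) or control 3 (0.0653), and under robust eBayes (0.0654). That of Hsd3b5 was lost without control 1 (0.0515) and under robust eBayes (0.0983). Of 11 female-biased genes 2 rose and 0 fell (median 0.54). Cd36, a fatty acid carrier of the cell surface, was 5.71-fold higher and the oxysterol hydroxylase gene Cyp39a1 was 2.54-fold higher in the knockouts, with adjusted p of 0.0191 and 0.0176. The Cd36 call was lost without knockout 3 (adjusted p = 0.076), knockout 4 (0.0562), control 1 (0.0653) or control 3 (0.0653), and under robust eBayes (0.0833). The Cyp39a1 call was lost without knockout 3 (0.0791), control 1 (0.0607) or control 2 (0.0613).

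**Figure D4:**
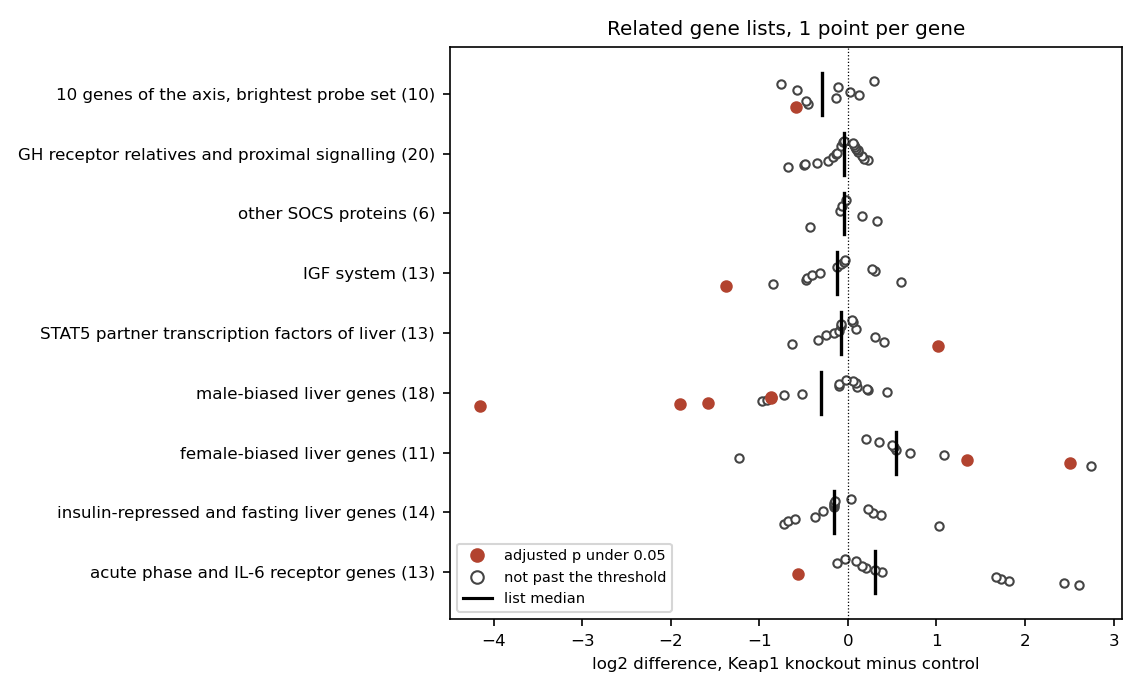
The log2 difference, knockout minus control, of each tested gene by its brightest probe set, grouped by list, with the number of genes in brackets, filled points for an adjusted p under 0.05 and a bar at each list's median. The 13 genes of the IGF system hold 1 called gene, Igfbp2 at -1.38, and the 5 called male-biased genes lie on the lower side.

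Inflammation and fasting are both known to lower growth hormone action in liver, and genes of each were read beside these results. Whether either had a part in the results was not tested. Of 13 acute phase and interleukin-6 receptor genes 1 fell, Il6st, the shared receptor subunit gp130, with 1168, 1231 and 1066 in the knockouts, against 1704, 1883 and 1576 in the controls (-0.57, adjusted p = 0.0486). That call held in 7 of 20 alternatives and in none that left out an array. The list's median was 0.30, and 10 of its 13 genes were above control on average. Read gene by gene after the values were seen, knockout 3 was far above the other 5 mice in Lcn2, Saa2, Saa3 and Orm2. It was the highest by smaller margins in Saa1, Orm1, Hp, Fga, Fgb and Fgg. In the receptor genes Il6st, Il6ra and Il1r1 it was not the highest. Of these, Lcn2 had 27130.2, 2233 and 2238 in the knockouts, against 346, 2072 and 796 in the controls. Saa3 had 13903, 898 and 625 in the knockouts, against 905, 324 and 705 in the controls. Il1r1 had 298, 192 and 495 in the knockouts, against 328, 137 and 272 in the controls. Without knockout 3 the difference of Ghr was -0.58 (adjusted p = 0.151) and that of 1434413_at of Igf1 was -0.78 (adjusted p = 0.045). Of 14 genes that insulin represses or fasting induces 0 were called and 1 had an unadjusted p under 0.05, with Fgf21 at 1.03 (adjusted p = 0.394) and G6pc at -0.72 (adjusted p = 0.467).

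Markers of other liver cells were measured in the same arrays, and their part in the results was not tested. Summed signals were 8593 to 11067 in the knockouts and 6393 to 10520.0 in the controls for 9 Kupffer cell and leukocyte markers, and 6153 to 6814 in the knockouts and 5957 to 6146 in the controls for 6 endothelial markers. For 6 stellate cell markers the sums were 9157 to 10277 in the knockouts and 9599.6 to 10545 in the controls. For 4 bile duct markers they were 252 to 500.4 in the knockouts and 294 to 1287 in the controls, and for 4 muscle and fat markers 233 to 311 in the knockouts and 243 to 309 in the controls. None of the tested genes among these was called by limma, where 3 had an unadjusted p under 0.05, and none was under a signal of 16 on all arrays. The endothelial sum, like the hepatocyte sum, was higher in the knockouts without overlap. The endothelial margin was narrow, with 6153 in the lowest knockout and 6146 in the highest control. Singled out after its values were seen, Lyve1 marks sinusoidal and lymphatic endothelium. It had signals of 739, 705 and 1394 in the knockouts, against 238, 332 and 582 in the controls (log2 difference 1.29, limma adjusted p = 0.117). The other endothelial markers differed little, with Kdr at -0.15, Clec4g at -0.08, Stab2 at -0.0002, Eng at 0.08 and Pecam1 at 0.11. The 3′ to 5′ signal ratio of actin, a sign of RNA quality, was 1.58 to 1.85 in the knockouts and 1.54 to 1.90 in the controls.

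Patterns across the 6 mice were compared by the root mean square distance of centred log2 values, over 22653 probe sets of other genes. Nearest to Ghr were Ece1 (0.0528), Prxl2b (0.0625) and Sfxn2 (0.0667), against a median distance of 0.385. Nearest to Igfals were Pklr (0.106), Med22 (0.108) and Glo1 (0.11), against a median of 0.53. For Igf1, by its flat brightest probe set, they were Kdm5a (0.0279), Dnajc22 (0.0315) and Chd9 (0.0388), against 0.287. The 3 genes are those of the axis with the lowest p in any probe set.

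**Figure D5:**
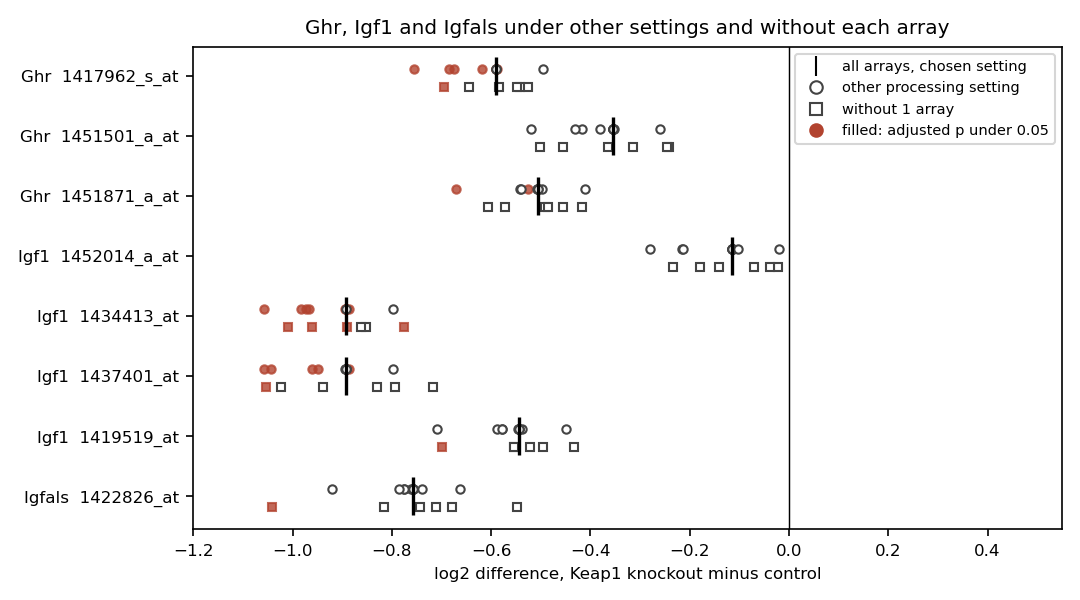
The log2 difference of the 8 probe sets of Ghr, Igf1 and Igfals with all arrays (bar), under other processing settings (circles) and without each array in turn (squares), filled where the adjusted p was under 0.05. All values lie below 0, and 1434413_at of Igf1 is called in 14 of 18 fits.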

How the data were processed

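The deposited values are linear array intensity, a single signal for every probe set on an array. Total liver RNA, per the labels' protocols, was converted to biotin-labelled cRNA and hybridised together with control transcripts. Neither the summarising software, with its version, nor a genome build is given in the sources used here. With 2% of probe sets trimmed at each end, every array's mean was 500.0, which shows that the authors had scaled the arrays to one target. Of 45101 probe sets, 64 were controls, 34945 had 1 gene symbol in the platform's probe table, 932 several and 9160 none, and only those with 1 symbol gave gene names.

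From these intensities log2(signal + 16) was computed. Depending on the array, 11.9% to 16.5% of values lay below 16. Probe sets with a mean log2 value over the 6 arrays at or above the 40th percentile, about a signal of 79.0, were tested, which left 27022. Groups and mouse numbers came from the labels. limma 3.58.1 under R 4.3.3 fitted knockout against control by lmFit, followed by a two-sided moderated test (eBayes, variance trended on the mean). Benjamini-Hochberg adjustment ran over all 27022 probe sets, and the threshold was 0.05. The procedure was tested on simulated data. The number of arrays limits the precision. Alternatives changed the brightness limit, offset, scaling, variance model, array weights, probe set selection and arrays included.

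The 10 genes and the 14 related lists (171 entries, 137 genes tested) were chosen with earlier results of these data known. Each listed gene was read by its tested probe set with the highest mean log2 value. All probe sets of the 10 genes are named. Of each list other than the cell markers up to 4 called genes are named by size of difference, or the 2 largest where none was called. Of the markers, the endothelial ones are named, and Krt7 and Ckm for a sign that turned. Other named genes are marked as chosen after their values were seen. Promoter windows are those of RefSeq, GRCm38.p6; a Socs2 window was not analysed here.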

Additional observations from a re-analysis of the deposited data

How the results depend on the processing

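Log2 differences are knockout minus control. The count of called probe sets of the 10 genes, 2, was 1 with no brightness limit and 1 without _x_at, _s_at and _a_at probe sets, 0 with median centring and 0 with eBayes without the trend, 4 with scaling on the hybridisation controls and 4 with array weights, and 0 to 4 without 1 array. Over all tested probe sets the 410 calls became 271 with no limit, 105 without the trend and 149 to 297 without 1 array. Of those 410, 52.9% were higher; median centring gave 189 higher and 96 lower (66.3% higher), and scaling on the hybridisation controls gave 132 higher and 418 lower (24.0% higher), where the median of all probe sets moved by -0.16. Relative to that shift, 1417962_s_at of Ghr (-0.76 there) and 1434413_at of Igf1 (-1.06) kept their direction. The gene-level alternatives give no count of member probe sets.

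By its brightest probe set Ghr missed the threshold at -0.59 with no limit (adjusted p = 0.0906), at -0.59 without the trend (0.172), at -0.49 with median centring (0.296) and at -0.48 as a mean over its probe sets (0.127), and ran from -0.70 to -0.53 without 1 array. The called Igf1 probe set missed it with median centring (adjusted p = 0.0611) and without the trend (0.0877). Igfals ran from -1.04 to -0.55 without 1 array. Jak2, Stat5a, Stat5b and Bcl6 by their brightest probe sets were lower and not called in every alternative.

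Signs that turned were all of uncalled genes. Scaling on the hybridisation controls gave -0.0295 for Socs2, -0.14 for Cish, -0.13 for 1421065_at of Jak2 and -0.13 for 1422102_a_at of Stat5b; array weights gave -0.0736 for Cish, and the mean over probe sets gave -0.25 for Socs2. Without 1 array Socs2 ran from -0.0098 to 0.20, Cish from -0.22 to 0.23, Igfbp1 from -0.15 to 1.04, 1421065_at of Jak2 from -0.14 to 0.14, 1422102_a_at of Stat5b from -0.0805 to 0.12 and 1450381_a_at of Bcl6 from -0.50 to 0.0647. Krt7 ran from -0.74 to 0.0053 and Ckm from -0.32 to 0.0405. The 10 calls over the related lists became 1 without the trend and 4 to 7 without 1 array. No paired analysis was possible because the groups share only the mouse number 3. The cause of these movements was not tested. Probe sets near a signal of 16, as the dim ones of Socs2, carry little measurable signal.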
